A study of Homo sapiens with 6 samples.

Results

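Breast stem and progenitor cell markers were followed at the RNA level in DCIS.COM cells with and without knockdown of BCL9. The 10 genes CD44, CD24, ALDH1A1, ALDH1A3, PROM1, EPCAM, MUC1, SOX2, SOX9 and BMI1 were chosen by name, and each had 1 of the 58676 rows of the expression table. DCIS.COM, an established human line of basal breast cells, serves as a model of ductal carcinoma in situ, a lesion in which tumor cells are still held within the breast duct. The 3 NS control samples carried a PLKO.1 lentiviral vector with a non-silencing insert, and the 3 BCL9 KD samples carried the same vector with a single shRNA against BCL9. The parental line, the vector and the puromycin selection were therefore shared by both groups, and no sample carried a second shRNA. RNA of each sample came from its own T75 flask, so the spread within a group is that between flasks of cells. BCL9 is a coactivator that binds β-catenin, and the comparison asked what its partial knockdown does to expression in these cells.

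These markers are used in breast biology to enrich cells that renew themselves or that stand early in the epithelial hierarchy. Cells with high CD44 and low CD24 at the surface, cells with high aldehyde dehydrogenase activity, and cells sorted by EPCAM are classical fractions of this kind, and the first of these is also typical of basal tumor lines. PROM1, better known as CD133, marks progenitors in several tissues, MUC1 marks the apical face of luminal cells, and SOX2, SOX9 and BMI1 act in the nucleus to hold cells in an immature state. Such fractions are defined by protein or enzyme activity in single cells, whereas the values here are averages of RNA over a flask. In averages of this kind, fewer cells of a type and less RNA per cell cannot be told apart. For CD44 and MUC1 the study also measured surface protein by flow cytometry in DCIS.COM cells with BCL9 knockdown. The surface molecules that it names as significantly reduced there were integrins.

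Expression is given as FPKM, the reads counted on a gene per kilobase of its length and corrected for the depth of the sample. Levels of different genes are thus compared per given gene length only, which need not be the length of the transcripts expressed. The reads on genes ran from 15222452 to 22712638 in NS control samples and from 15665714 to 26949026 in BCL9 KD samples. BCL9 itself was at 6.25, 6.24 and 5.34 FPKM in the NS control samples, in the order of replicates 1 to 3 used throughout, against 2.86, 2.78 and 2.59 FPKM in BCL9 KD samples, which is −0.99 ± 0.0933 (standard error) on the log2 scale (limma adjusted p = 0.00773). The change of every gene was tested with limma on log2(FPKM + 0.5) over the 13745 genes with a mean of at least 0.5 FPKM, of which 807 (5.87%) had an adjusted p under 0.05, 407 of them (2.96%) higher and 400 (2.91%) lower in BCL9 KD cells. That count depends on single libraries, and was 12 without NS control replicate 2, 13 without BCL9 KD replicate 2, 5 without BCL9 KD replicate 3 and 1736 without NS control replicate 3, and the adjusted p of BCL9 was 0.0636, 0.06, 0.07 and 0.0145 in those fits. Basal epithelial markers summed to between 2301 and 2660 FPKM in NS control and between 2391 and 2431 FPKM in BCL9 KD samples, with KRT17 the most abundant at 570.4 ± 68.6 FPKM (SD, n = 3) in NS control. The luminal epithelial markers, led by KRT8, summed to between 686 and 862 FPKM in NS control and between 662 and 692 FPKM in BCL9 KD samples, with PGR and TFF1 listed at 0 in all samples.

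None of the markers that could be tested was differentially expressed after BCL9 knockdown. Of the 10 markers, 8 passed the filter on low values and 2, MUC1 and SOX2, did not. With limma, 0 of the 8 had an adjusted p under 0.05 in either direction, against 5.87% of all genes tested, and 0 had an unadjusted p under 0.05, against 27.5%. With limma's voom on the recovered reads, the counts were again 0 by the adjusted and 0 by the unadjusted p. Of all 13745 genes, 1403 (10.2%) passed voom by the adjusted p and 4195 by the unadjusted p. The 3 values of NS control and the 3 of BCL9 KD overlapped for all 8 tested markers, whereas 34.2% of all genes tested had groups without overlap. The log2 fold change was above 0 for 5 markers and below 0 for 3, with a median of 0.07, beside 0.04 for all genes tested. The 95% intervals of the 8 changes lay between −0.66 and 0.72, which is a fold of between 0.633 and 1.65, and their median half-width was 0.20 on the log2 scale against 0.29 for all genes tested. An adjusted p above the threshold does not show that levels were equal, so the interval is given with each marker.

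**Figure D1:**
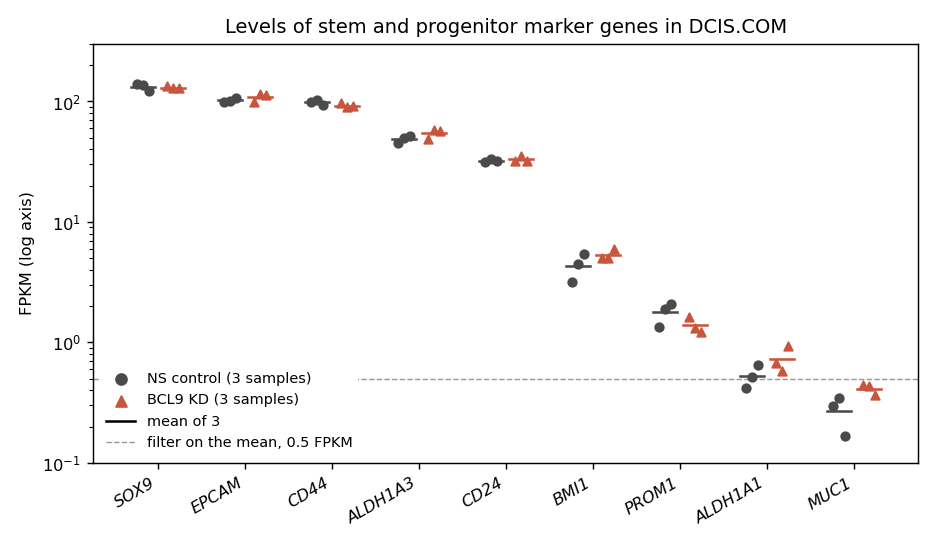
Expression of the markers in FPKM on a log axis, with NS control samples as circles, BCL9 KD samples as triangles, the mean of 3 as a line and the filter at 0.5 FPKM dashed. SOX9, EPCAM, CD44, ALDH1A3 and CD24 lie between 31.2 and 139 FPKM in NS control, the others lie at 5.40 FPKM or lower, and SOX2, with 0 reads in all samples, cannot be drawn.

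The markers fell into an abundant and a scarce set, with a gap between CD24 and BMI1. In NS control cells the order of the means was SOX9, EPCAM, CD44, ALDH1A3, CD24, BMI1, PROM1, ALDH1A1, MUC1 and SOX2. EPCAM and CD44, whose means differed by a factor of 1.04, were the only neighbours whose 3 values overlapped. Among neighbours that both had reads, the largest step was the 7.43-fold one from CD24 to BMI1, and no ratio can be given for MUC1 and SOX2. In BCL9 KD cells each marker held the same place in the order.

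Among the surface proteins, CD44 is the main receptor for hyaluronan and binds the cytoskeleton through ezrin, radixin and moesin. The gene (ENSG00000026508) lies on the plus strand of chromosome 11 from 35138870 to 35232402 in hg38, the build of all positions in the table. Its level was 98.3, 104 and 94.2 FPKM in NS control and 97.2, 89.5 and 90.9 FPKM in BCL9 KD replicates. The means of the groups were 98.6 ± 4.67 and 92.5 ± 4.07 FPKM (SD, n = 3), and the groups overlapped because BCL9 KD replicate 1 lay above the lowest NS control value. The change was −0.09 on the log2 scale with a 95% interval of −0.26 to 0.07 (limma adjusted p = 0.418). It was −0.06 without NS control replicate 2 and −0.18 with quantile normalization. CD44 was more abundant than 98.6% of protein-coding genes in NS control cells, and at least 14315 reads stood behind each value.

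CD24 is a small, heavily glycosylated protein anchored in the membrane by lipid, and it is low in the breast fraction sorted for CD44. Its gene (ENSG00000272398, minus strand of chromosome 6, 106969831 to 106975627) was at 31.2, 33.2 and 32.3 FPKM in NS control and at 32.2, 35.6 and 32.2 FPKM in BCL9 KD replicates. The groups overlapped, and BCL9 KD replicate 2 was the highest of all samples. On the log2 scale the change was 0.05, with an interval of −0.12 to 0.21 (limma adjusted p = 0.693). Without BCL9 KD replicate 2 it was −0.000972. CD24 has near-identical processed pseudogenes elsewhere in the genome, so its reads may be divided among copies, and how such reads were counted is not given in the sources used here.

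CD44 exceeded CD24 in every sample. The ratio of their FPKM was 3.14, 3.12 and 2.92 in NS control replicates and 3.02, 2.52 and 2.82 in BCL9 KD replicates. On the log2 scale CD44 minus CD24 was 1.60 ± 0.0595 in NS control and 1.46 ± 0.131 in BCL9 KD cells (SD, n = 3), so that BCL9 KD minus NS control was −0.14, which a two-sided exact permutation test did not separate from the spread between flasks (p = 0.2, where the smallest p that 3 against 3 allow is 0.1). The groups overlapped, because BCL9 KD replicate 1 lay above NS control replicate 3. Leaving out single replicates gave differences of −0.20 to −0.07, and the groups no longer overlapped without NS control replicate 3 or BCL9 KD replicate 1 (exact permutation p = 0.2, the smallest that 2 against 3 allow).

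**Figure D2:**
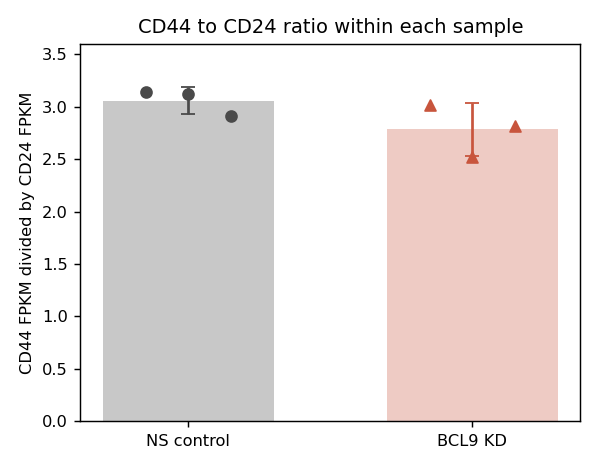
CD44 FPKM divided by CD24 FPKM within each sample; bars are means of 3 samples starting at 0, error bars are the SD, and points are single samples. The NS control ratios lie between 2.92 and 3.14 and the BCL9 KD ratios between 2.52 and 3.02, so that the groups overlap.

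EPCAM is an adhesion protein of epithelial cells that is cut within the membrane to release a signaling fragment. The gene (ENSG00000119888, plus strand of chromosome 2, 47345158 to 47387601) was at 98.2, 101 and 107 FPKM in NS control and 99.8, 114 and 113 FPKM in BCL9 KD replicates. BCL9 KD replicate 1 lay among the NS control values and the other two above them. Its log2 fold change of 0.09 had an interval of −0.10 to 0.27 (limma adjusted p = 0.492), and the level exceeded that of 98.6% of protein-coding genes. The change was 0.15 without BCL9 KD replicate 1, 0.05 without BCL9 KD replicate 2 and 0.0066 with quantile normalization.

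PROM1 encodes a protein of membrane protrusions that crosses the membrane several times. The gene (ENSG00000007062, minus strand of chromosome 4, 15963076 to 16084378) was at 1.34, 1.90 and 2.09 FPKM in NS control and 1.62, 1.32 and 1.21 FPKM in BCL9 KD replicates. NS control replicate 1 fell among the BCL9 KD values, so that the groups overlapped. The log2 fold change of −0.27 had an interval of −0.66 to 0.12 (limma adjusted p = 0.331). It was −0.41 without NS control replicate 1 and −0.17 without NS control replicate 3. Reads on PROM1 ran from 141 to 286 per sample.

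MUC1, a transmembrane mucin of the luminal surface, was barely detected. The gene (ENSG00000185499, minus strand of chromosome 1, 155185824 to 155192916) was at 0.299, 0.346 and 0.167 FPKM in NS control and 0.444, 0.433 and 0.365 FPKM in BCL9 KD replicates, from between 12 and 55 reads per sample. All BCL9 KD values lay above all NS control values, as for 2449 of the 13745 genes tested (17.8%), and a two-sided exact permutation test gave p = 0.1, the smallest that 3 against 3 allow. MUC1 did not pass the filter, and in the fit without a filter its log2 fold change was 0.25 with a standard error of 0.141 (limma adjusted p = 0.482). EPCAM and MUC1, both epithelial surface markers, differed between 225-fold and 643-fold in FPKM within a sample.

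The aldehyde dehydrogenases ALDH1A1 and ALDH1A3 both oxidise retinal to retinoic acid, and either can account for the enzyme activity used to sort breast progenitors. ALDH1A3 (ENSG00000184254, plus strand of chromosome 15, 100877714 to 100916626) was at 44.9, 49.7 and 51.6 FPKM in NS control and 48.9, 58.2 and 56.9 FPKM in BCL9 KD replicates. Its BCL9 KD replicate 1 fell among the NS control values and the other two lay above them. On the log2 scale BCL9 KD minus NS control was 0.16, with an interval of −0.06 to 0.38 (limma adjusted p = 0.303). Without NS control replicate 1 it was 0.10, and without BCL9 KD replicate 1 it was 0.24. ALDH1A1 (ENSG00000165092, minus strand of chromosome 9, 72900662 to 73080442) was at 0.417, 0.520 and 0.646 FPKM in NS control and 0.675, 0.573 and 0.941 FPKM in BCL9 KD replicates, from between 27 and 44 reads. NS control replicate 3 exceeded BCL9 KD replicate 2, and the log2 fold change of 0.25 had an interval of −0.19 to 0.69 (limma adjusted p = 0.403). It was 0.13 without BCL9 KD replicate 3 and 0.43 with voom. The values of ALDH1A3 carry a further limit, since 33.3% of its exon bases in the GENCODE annotation are shared with other genes, ALDH1A3-AS1 on the opposite strand among them, and the library kit named by the study does not mark the strand.

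ALDH1A3 was the dominant gene of the pair in all samples. Its FPKM was between 79.98 and 108 times that of ALDH1A1 in NS control and between 60.5 and 102 times in BCL9 KD samples (two-sided exact permutation test, p = 0.3). Of the summed FPKM of 19 aldehyde dehydrogenase genes, ALDH1A3 took 20.7% ± 1.99 in NS control and 22.3% ± 1.54 in BCL9 KD cells (SD, n = 3), and ALDH1A1 took 0.225% ± 0.0547 and 0.298% ± 0.0746. Neither share separated the groups (exact permutation tests, p = 0.3 and p = 0.2). The stretches before the start sites that RefSeq gives on GRCh38.p14 were read from promoter entries, which matched 8 of the 10 markers, and they are shown because the pair serves the same reaction at levels far apart, with SOX2, the marker without reads, beside them. ALDH1A3 (chr15:100879581-100879830, plus strand), ALDH1A1 (chr9:72953054-72953303, minus strand) and SOX2 (chr3:181711675-181711924, plus strand) are given 5′ to 3′ over 250 bases, ending at the base before that start site, with CG dinucleotides in capitals. The windows of ALDH1A3 and ALDH1A1 lie inside the gene spans of the expression table, whose outer ends are not the RefSeq starts, so they describe 1 annotated start of each gene.
ALDH1A3: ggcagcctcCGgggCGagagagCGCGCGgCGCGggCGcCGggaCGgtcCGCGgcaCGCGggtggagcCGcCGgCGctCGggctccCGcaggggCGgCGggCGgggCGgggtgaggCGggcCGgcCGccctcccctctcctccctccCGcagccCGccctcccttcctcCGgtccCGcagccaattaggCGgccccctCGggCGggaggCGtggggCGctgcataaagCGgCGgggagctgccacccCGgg
ALDH1A1: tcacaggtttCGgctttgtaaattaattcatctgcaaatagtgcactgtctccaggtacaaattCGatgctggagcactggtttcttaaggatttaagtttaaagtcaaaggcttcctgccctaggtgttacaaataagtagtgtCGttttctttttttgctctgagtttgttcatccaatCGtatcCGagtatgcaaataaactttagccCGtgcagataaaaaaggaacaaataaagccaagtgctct
SOX2: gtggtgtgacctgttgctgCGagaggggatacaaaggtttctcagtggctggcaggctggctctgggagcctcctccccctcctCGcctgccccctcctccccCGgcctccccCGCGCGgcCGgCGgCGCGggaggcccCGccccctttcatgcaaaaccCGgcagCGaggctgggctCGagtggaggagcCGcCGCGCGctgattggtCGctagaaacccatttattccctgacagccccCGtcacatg

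The stretch before ALDH1A3 held 38 CG dinucleotides, more than 96.8% of 27305 RefSeq promoters of the same length, and was 82.4% G or C. The one before ALDH1A1 held 6, more than 38.7% of promoters, and was 38.4% G or C. The order by CG content was not the order by level, since the stretches before SOX2 and CD24 both held 20, that before CD44 held 15 and that before BMI1 held 35. The palindromic STAT motif TTCNNNGAA, searched on both strands, was in 0 of 8 marker stretches and in 6.78% of all promoters. The TCF/LEF motif CTTTGAT, also searched on both strands, was in 0 of 8 and in 2.28% of all. A TATAAA box was found before MUC1 alone and in 11.1% of promoters. These letters describe the windows printed and say nothing about binding.

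SOX9, a transcription factor of mammary progenitors, was the most abundant of the markers. The gene (ENSG00000125398, plus strand of chromosome 17, 72121020 to 72126420) was at 139, 137 and 122 FPKM in NS control and 134, 128 and 128 FPKM in BCL9 KD replicates. The BCL9 KD values all lay inside the NS control range, and the log2 fold change of −0.02 had an interval of −0.20 to 0.15 (limma adjusted p = 0.850). That change was 0.0101 without NS control replicate 1, −0.0847 without NS control replicate 3 and −0.14 with quantile normalization. SOX9 exceeded 99.0% of protein-coding genes. It made up 74.0% ± 1.45 of the summed FPKM of 15 SOX genes in NS control and 72.5% ± 0.411 in BCL9 KD cells (SD, n = 3; exact permutation test, p = 0.2).

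SOX2, a pluripotency factor, had 0 reads in all 6 samples, over a gene length of 2513 bases. A count of 0 allows a level of up to 3 reads, which is 0.0526, 0.0590 and 0.0784 FPKM in NS control and 0.0675, 0.0443 and 0.0762 FPKM in BCL9 KD replicates. No change of SOX2 can be given, and this limit covers counting error alone. The gene (ENSG00000181449, plus strand of chromosome 3, 181711924 to 181714436) lies within the span of SOX2-OT, a noncoding transcript of the same strand at 0.0148 to 0.0430 FPKM. Of the SOX2 exon bases in the GENCODE annotation, 0 are shared with another gene.

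BMI1 is a subunit of polycomb repressive complex 1, which silences CDKN2A and other genes. BMI1 (ENSG00000168283, plus strand of chromosome 10, 22321211 to 22331484) was at 3.15, 4.47 and 5.40 FPKM in NS control and 5.03, 5.04 and 5.96 FPKM in BCL9 KD replicates. NS control replicate 3 lay above BCL9 KD replicates 1 and 2, and NS control replicate 1 was the lowest of all samples. The log2 fold change of 0.30 had an interval of −0.12 to 0.72 (limma adjusted p = 0.316). It was 0.11 without NS control replicate 1, 0.45 without NS control replicate 3 and 0.10 with a correction for transcript GC content. Of its exon bases, 22.8% are shared with the read-through gene COMMD3-BMI1, which was listed at 0 in all samples. How reads on shared bases were counted is not given in the sources used here. That 0 therefore does not show that the read-through was absent or that the BMI1 values were unaffected.

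**Figure D3:**
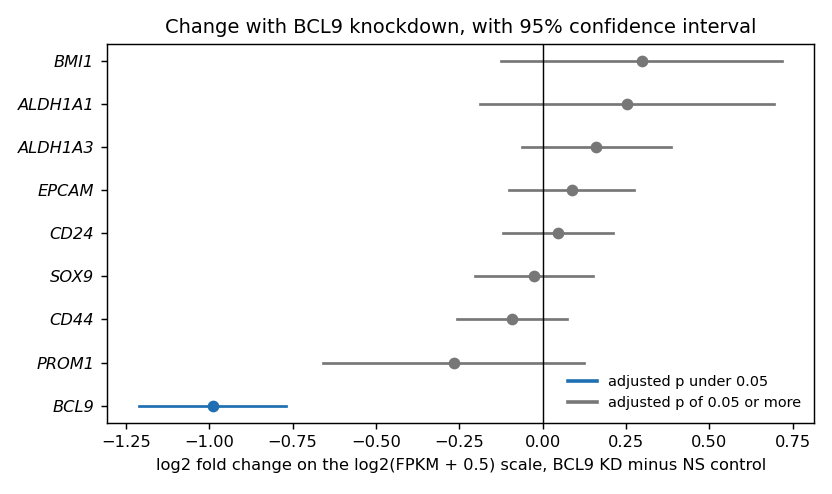
Log2 fold change of the 8 tested markers and of BCL9, BCL9 KD minus NS control on the log2(FPKM + 0.5) scale, with 95% intervals from limma. Every marker interval crosses 0, between −0.66 for PROM1 and 0.72 for BMI1, while BCL9 lies at −0.99.

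Of 80 tested genes from 6 lists of genes related to the markers, 3 (3.75%) passed limma's adjusted test and 20 (25%) the unadjusted one, beside 5.87% and 27.5% of all genes tested. By voom the share of all genes tested was 10.2%. A further list of stem and progenitor markers, given below, is not among the 6. Of its 10 tested genes, 1 rose and 3 fell by limma's adjusted p, and 8 passed by the unadjusted p. In the aldehyde dehydrogenase family without ALDH1A1 and ALDH1A3, 0 of 12 tested genes passed limma's adjusted test (1 by the unadjusted p, 0 by voom), with a median log2 fold change of −0.04, and ALDH18A1 and ALDH7A1 were the most abundant of these at 52.1 ± 5.09 and 41.0 ± 0.297 FPKM (SD, n = 3) in NS control. Of 11 tested genes that make, carry, sense or degrade retinoic acid, 0 rose and 2 fell by limma's adjusted p, while 4 passed by the unadjusted p and 2 by voom. CRABP2, which carries retinoic acid to its nuclear receptors, fell from 8.59 ± 0.923 to 4.05 ± 0.849 FPKM (SD, n = 3), a log2 change of −1.01 (limma adjusted p = 0.0236), and the retinal reductase DHRS3 fell from 34.4 ± 2.501 to 26.9 ± 1.05 FPKM, a log2 change of −0.35 (limma adjusted p = 0.0486). The mean changes of ALDH1A3 and ALDH1A1, which work in the same pathway, had the other sign and did not pass.

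For the next lists, the shares of all genes tested were again 5.87% by limma's adjusted p, 27.5% by the unadjusted p and 10.2% by voom. Around CD44, 0 of 16 tested ligand enzymes, linkers and splicing regulators passed limma's adjusted test (5 by the unadjusted p, 3 by voom), with a median log2 fold change of 0.10 and EZR the most abundant at 86.0 ± 8.57 FPKM (SD, n = 3) in NS control. Around EPCAM, MUC1 and CD24, 1 of 15 tested genes rose and 0 fell by limma's adjusted p, while 4 passed by the unadjusted p and 1 by voom. It was the tetraspanin CD9, a membrane partner of EPCAM, which went from 32.6 ± 2.61 to 48.7 ± 4.77 FPKM (SD, n = 3), or by 0.57 on the log2 scale (limma adjusted p = 0.0306). Around BMI1, 0 of 18 tested polycomb genes passed limma's adjusted test (4 by the unadjusted p, 0 by voom), with a median of 0.10, and CDKN2A, which was singled out after its value was seen, was listed at 0 in all samples. Why CDKN2A had no reads was not tested, so its value is not a measure of BMI1 activity. Among pluripotency and SOX factors, 0 of 8 tested genes passed limma's adjusted test (2 by the unadjusted p, 1 by voom) and 13 of 21 did not reach the filter, with LIN28B, ZFP42, SOX11 and SOX17 listed at 0 in all samples, as SOX2 was.

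Another list held further surface and nuclear markers of mammary stem and progenitor cells, of which 10 of 21 could be tested. Among these, 1 rose and 3 fell by limma's adjusted p, against 5.87% of all genes tested. By the unadjusted p 8 passed, against 27.5%, and by voom 4 passed, against 10.2%. The list was chosen with earlier results of these data known, so its counts cannot show an excess over those shares. The median log2 fold change of the 10 tested genes was −0.09, and the difference from the markers above was not tested. PROCR, the protein C receptor of a multipotent basal fraction, rose from 2.85 ± 0.0595 to 5.34 ± 0.449 FPKM (SD, n = 3), or by 0.80 on the log2 scale (limma adjusted p = 0.0109). The intermediate filament gene NES fell from 2.90 ± 0.206 to 0.406 ± 0.0677 FPKM, a log2 change of −1.91 (limma adjusted p = 0.00335). The integrin gene ITGB3, which marks luminal progenitors in mouse, fell by 0.95 on the log2 scale (limma adjusted p = 0.00942), and the transcription factor gene BCL11A fell by 0.37 (limma adjusted p = 0.0488). ITGA6 and NGFR were the most abundant genes of this list at 397 ± 60.0 and 373 ± 36.4 FPKM (SD, n = 3) in NS control.

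The shares of all genes tested to set beside the cell type markers are 5.87% by limma's adjusted p, 27.5% by the unadjusted p and 10.2% by voom. For groups without overlap the share is 34.2%. Of these markers, 0 of 12 tested basal genes passed limma's adjusted test (4 by the unadjusted p, 2 by voom) and 1 of 12 luminal genes did, AGR2, which rose from 0.775 ± 0.172 to 2.83 ± 0.0262 FPKM (SD, n = 3), or by 1.39 on the log2 scale (limma adjusted p = 0.00773). Of the other 11 tested luminal genes, 10 had a log2 fold change below 0 and 1 above 0 without passing, the median of the list was −0.15, and 5 of its 12 genes passed by the unadjusted p and 2 by voom. Fibroblast and mesenchymal markers, led by TWIST1, summed to between 5.97 and 7.53 FPKM in NS control and between 7.89 and 9.66 FPKM in BCL9 KD samples, with 0 of 4 tested genes passing (1 by the unadjusted p, 0 by voom) and COL3A1 and PRRX1 at 0. Leukocyte and endothelial markers summed to between 2.22 and 3.02 FPKM in NS control and between 4.26 and 5.51 FPKM in BCL9 KD samples, and PECAM1 was the 1 of 2 tested genes that passed, with a log2 change of 0.61 (limma adjusted p = 0.0477), while both passed by the unadjusted p, 1 passed by voom, and both had groups without overlap. Their part in the values of the stem and progenitor markers was not tested. Of the 9 genes of these lists that passed, NES alone passed also without NS control replicate 2, without BCL9 KD replicate 2 and without BCL9 KD replicate 3, and with the replicate block 0 of all genes passed limma's adjusted test (3235 by the unadjusted p). Over the alternative settings and left-out replicates together, DHRS3 and BCL11A passed in 8 of 18, CD9 in 11, CRABP2 and AGR2 in 13, ITGB3 and PROCR in 14 and NES in 17 of 18, and PECAM1 in 6 of the 16 in which it had a value.

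**Figure D4:**
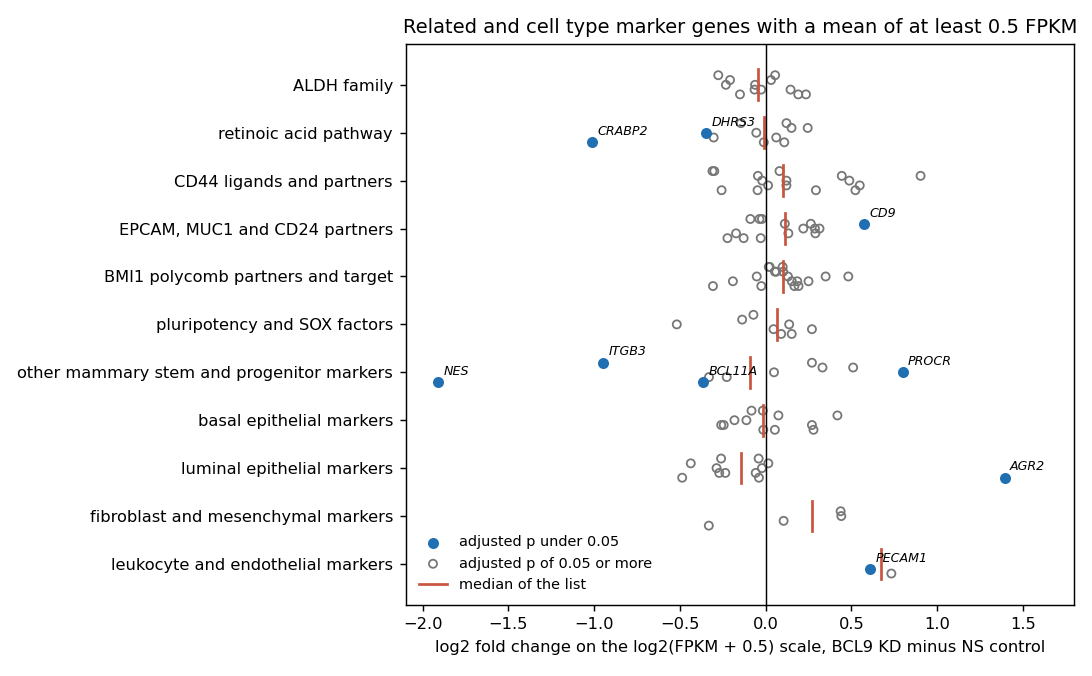
Log2 fold change, BCL9 KD minus NS control on the log2(FPKM + 0.5) scale, of the tested genes related to the markers and of cell type markers, with a line at the median of each list. Filled points are the 9 genes with a limma adjusted p under 0.05, from NES at −1.91 to AGR2 at 1.39, and open points are the genes that did not pass.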

How the data were processed

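RNA sequencing compared 3 NS control with 3 BCL9 KD samples of DCIS.COM cells, grouped by their labels, and no sample was left out. The study's methods speak of 2 replicates for its own test, but the labels and the table give 3 in each group, and all were used. Per the labels and the study's methods, the authors aligned read pairs to hg38 with STAR, used HTSeq 0.6.1 for the counts per gene and deposited FPKM for 58676 genes, with the gene length in bases, in other units, beside them. HTSeq's rule for reads on overlapping genes is not given in the sources used here. The product of FPKM and gene length was a whole multiple of 1 step per sample for 100% of values, within a tolerance of 0.1 reads, which gave the reads on each gene. The study used a test for counts, whereas the FPKM were tested here with limma 3.58.1 in R 4.3.3, on log2(FPKM + 0.5) with the trend of empirical Bayes, for genes with a mean of at least 0.5 FPKM, and Benjamini-Hochberg adjustment over all of them. The added value makes the fold changes of low genes smaller than the ratio of their FPKM. Single values and ratios were compared by two-sided exact permutation tests over samples. Pearson correlations of log2 values between replicates were 0.964 to 0.987. Counting intervals and limits cover counting error only.

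The markers and the lists of related genes were chosen with earlier results of these data known. The text names the 10 markers, BCL9, the list genes that passed (at most the 4 largest changes each way), up to 2 of the most abundant genes of a list, and of the cell type lists the most abundant gene and those at 0. Alternatives were 1 or 0.1 FPKM added, a mean of at least 1 FPKM or no filter, scaling by median of ratios or by quantiles, robust fitting, no trend, the replicate block, limma's voom on recovered reads, a loess correction (span 0.3) for transcript GC content, known for 98.8% of tested genes, alone or with the block, and leaving out each sample. The fit was tested on simulated data. GC content and shared exon bases came from GENCODE 44 on GRCh37, and no coordinate was taken from it. Other tools were Python 3.11, scipy 1.17.1, numpy 2.4.6, matplotlib 3.10.9 and pandas 2.3.3.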

Additional observations from a re-analysis of the deposited data

How the results depend on the processing

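Of the 141 values that the 8 tested markers had under the alternatives, 0 passed limma's adjusted test and 2 changed sign; ALDH1A1 had no value with a mean of at least 1 FPKM and CD24 none with the GC corrections. Over the alternatives, the log2 fold change ran from −0.18 to −0.06 for CD44, from 0.13 to 0.43 for ALDH1A1, from 0.10 to 0.24 for ALDH1A3, from −0.41 to −0.17 for PROM1, from 0.0066 to 0.15 for EPCAM and from 0.099 to 0.45 for BMI1. CD24 ran from −0.000972 to 0.0703 on the log2 scale with a replicate left out, and SOX9 from −0.0847 to 0.0101; over all alternatives SOX9 ran from −0.14, with quantile normalization, to 0.0101. The count over all genes, 807, was 142 with no filter, 332 without the trend, 1403 with voom and 1546 with the GC correction, and the cause was not tested. Leaving out a replicate gave from 5 to 1736 genes: 12 without NS control replicate 2, 1736 without NS control replicate 3, 13 without BCL9 KD replicate 2 and 5 without BCL9 KD replicate 3. With the replicate block, 0 genes passed by limma's adjusted p (3235 by the unadjusted p under 0.05), and 100 with the GC correction added. Deviations of samples with the same number had correlations of −0.147, −0.0884 and −0.00287, so the numbers do not pair the samples. Quantile normalization gave 470 higher and 613 lower genes and the GC correction 689 and 857, against 407 and 400. BCL9 was lower under all 18 alternatives, with an adjusted p of 0.0016 to 0.07, and passed in 14; it did not pass with the replicate block or without NS control replicate 2, BCL9 KD replicate 2 or BCL9 KD replicate 3. The CD44 minus CD24 difference stayed below 0 under all alternatives run, from −0.21 to −0.07; its GC correction was not run because CD24 has no GC value. Depth limits SOX2, with 0 reads, ALDH1A1, with at most 44 reads per sample, and MUC1, with at most 55.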
